A study of Mus musculus with 12 samples.

Results

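The let-7 and miR-98 family was followed through the differentiation of mouse osteoclasts, the multinucleated cells that resorb bone. Its 9 guide-strand members (mmu-let-7a, mmu-let-7b, mmu-let-7c, mmu-let-7d, mmu-let-7e, mmu-let-7f, mmu-let-7g, mmu-let-7i and mmu-miR-98, written here without the prefix for mouse) were chosen by their names on the array, which carries 696 mouse miRNAs, and all 9 were detected on all 12 arrays. Bone marrow from C57BL/6 male mice aged 6 to 8 weeks was depleted of cells bearing the lymphocyte markers B220/CD45R and CD3. The remaining cells were cultured with M-CSF, on which osteoclast precursors depend, and RANKL, which drives them to differentiate, at 30 ng/ml each. RNA was taken at day 1, day 3 or day 5, with 4 arrays per day and 1 color per array. Every group carried both cytokines, so the comparison is between days of culture and there is no culture without RANKL. Each culture held a mixture of cells, and in such bulk RNA fewer cells of a type and less of a miRNA per cell cannot be told apart.

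A miRNA guides a silencing complex to messenger RNAs, mostly through its seed, the short stretch near the 5′ end that pairs with the target. The let-7 miRNAs share 1 seed and are known in many tissues for rising as cells leave a proliferating, immature state, with transcripts of Lin28, Hmga2, Myc and Ras genes among their classic targets. They are made from several genes, some of which lie in clusters with each other or with miRNAs of other seeds, and the RNA-binding protein LIN28 can block the maturation of many let-7 precursors.

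The mature sequences below (RefSeq, GRCm38.p6; 9 of 9 members matched by name) are shown because the probes tell the members apart by few bases. Capitals mark the seed, bases 2 to 8.
let-7a: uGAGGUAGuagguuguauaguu
let-7b: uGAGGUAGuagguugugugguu
let-7c: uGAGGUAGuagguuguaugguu
let-7d: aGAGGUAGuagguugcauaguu
let-7e: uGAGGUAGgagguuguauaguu
let-7f: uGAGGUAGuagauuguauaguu
let-7g: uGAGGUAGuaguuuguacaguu
let-7i: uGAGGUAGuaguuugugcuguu
miR-98: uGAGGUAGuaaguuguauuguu

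All 9 are 22 bases long and carry the seed GAGGUAG, which 11 of 1679 mature mouse entries in the RefSeq table hold (0.655%). Outside the seed the members differ from let-7a by 1 to 4 bases, counted from 1 at the 5′ end with the base of let-7a first. let-7c differs by A19G, let-7e by U9G and let-7f by G12A. let-7b differs by A17G and A19G, let-7d by U1A and U16C, let-7g by G12U and U18C, and miR-98 by G11A and A19U. let-7i stands farthest from let-7a, with G12U, A17G, U18C and A19U. Each member was read by 2 probes of 18 to 22 bases that pair with it from the 3′ end, with 10 spots each. Over the paired stretch, the let-7a probes differ by 1 base from let-7c, let-7d, let-7e and let-7f, the let-7b probes from let-7c, the let-7c probes from let-7a and let-7b, and the probes of let-7d, let-7e and let-7f from let-7a. The probes of let-7g, let-7i and miR-98 have at least 2 mismatches with every other member. The part of cross-hybridization in the results was not tested.

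Between 186 and 276 miRNAs were detected per array, and the summed signal at days 3 and 5 averaged 58.4% and 80.3% of that at day 1. Days 1 and 5 shared slide 1 and day 3 had slide 2 to itself, so for any comparison with day 3 the slide and the day cannot be told apart, while day 5 against day 1 lies within 1 slide. The osteoclast lineage is myeloid, and the myeloid miRNAs miR-223, miR-142-3p and miR-142-5p were detected on every array. Of the erythroid list, 2 of 3 miRNAs were found by name, and their summed signal ranged from 29020 to 57393 at day 1, from 738 to 1760 at day 3 and from 49.4 to 286 at day 5. The megakaryocytic miR-126-3p was detected at day 1 alone, and so was miR-150 of the lymphoid list, while the other 2 lymphoid-list miRNAs were detected on all 12 arrays. The summed lymphoid signal ranged from 2471 to 3336 at day 1, from 1267 to 1525 at day 3 and from 1594 to 2026 at day 5. The summed signal of the 5 stromal miRNAs ranged from 494 to 885 at day 1, from 403 to 519 at day 3 and from 2432 to 3545 at day 5. Of these, miR-143 was detected at day 5 alone and miR-145 at day 1 alone. At day 1 and at day 5, 2 of the 5 were detected on all 4 arrays. The erythroid, megakaryocytic and lymphoid signals were thus lower at the later days, and the summed stromal signal was higher at day 5. These sums are not normalized, and the summed myeloid signal was lower too. It ranged from 101360 to 121056 at day 1, from 54177 to 69194 at day 3 and from 77799 to 95580 at day 5. The part of these lists in the results was not tested. Replicate 4 of day 1 had low total signals for the family, with let-7a at 16299 against 37988 to 45352 on the other 3 arrays of that day, so the changes from day 1 are also given without it.

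From day 1 to day 5, 5 of 9 members rose. let-7e rose 5.20-fold, miR-98 2.42-fold, let-7d 2.11-fold, let-7f 2.10-fold and let-7a 1.89-fold on the normalized scale, with saturated spots in let-7f. For let-7b, let-7c, let-7g and let-7i the differences were between 1.13-fold and 1.37-fold and did not pass. The test was limma's moderated contrast on quantile normalized log2 signals, adjusted by Benjamini-Hochberg over 334 miRNAs, at 0.01. Of all miRNAs tested, 31.7% rose and 29.0% fell by the same rule. All 9 differences were positive, so 0 members fell by limma, adjusted or at an unadjusted p under 0.05, or by the exact permutation test. The median difference of the 9 members was 0.92 on the log2 scale, beside 0.11 over all miRNAs tested and 0.36 over the 148 that, like the members, were detected on all 12 arrays. let-7g and let-7i lay below the latter.

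**Figure D1:**
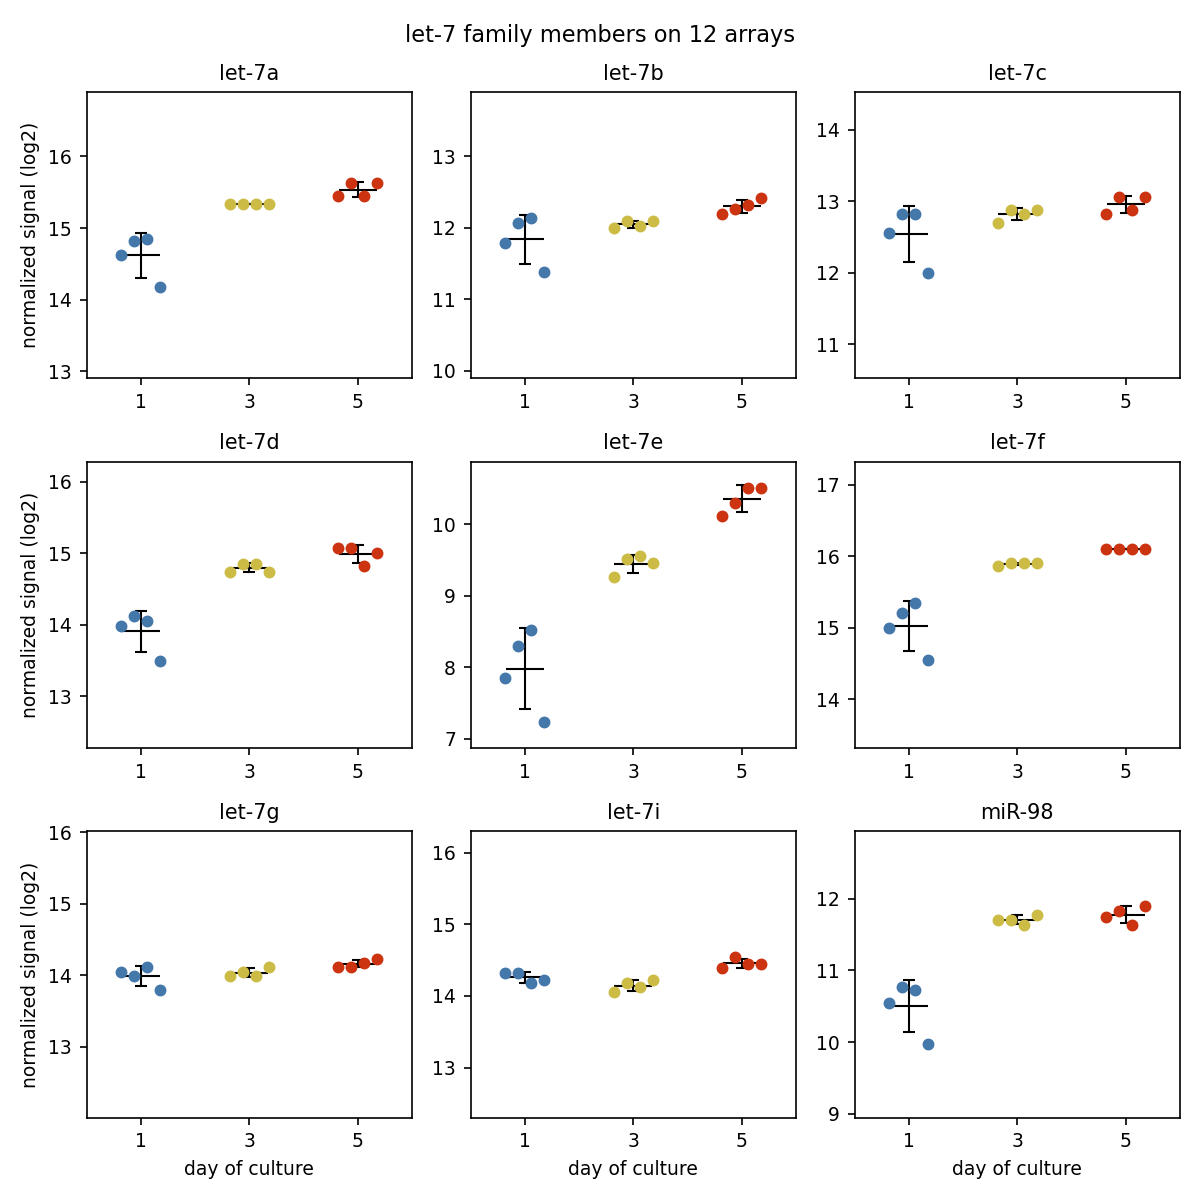
Normalized signal (log2, vertical axis) of the 9 family members by day of culture (horizontal axis); each point is 1 array, the bar is the mean and the error bar the SD of 4 arrays, and every panel spans 4 log2 units. The arrays of day 5 lay above all arrays of day 1 for 7 members, with let-7c and let-7g the exceptions.

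let-7e, which is encoded inside a cluster with miR-99b and miR-125a, had the largest difference of the 9. Its normalized log2 signals were 7.85, 8.30, 8.52 and 7.24 on the arrays of day 1. At day 3 they were 9.27, 9.51, 9.55 and 9.46, and at day 5 they were 10.12, 10.29, 10.50 and 10.50. No array of one day overlapped with those of another, and each later day was higher. The difference from day 1 to day 5 was 2.38 (SE 0.24, limma adjusted p = 6.74e-06, n = 4 per day), and the exact two-sided permutation test gave p = 0.0286, the smallest that 4 against 4 arrays allow. Replicate 4 of day 1 was the lowest of its day, and without it the difference was 2.13. The size also depended on the signal used, with 1.61 after normexp background correction and 3.42 in the authors' deposited values, both past the limma threshold.

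miR-98, the member that carries another name but the same seed, had most of its normalized rise by day 3. Its log2 signals of 10.55, 10.77, 10.72 and 9.98 at day 1 were followed by 11.71, 11.71, 11.64 and 11.78 at day 3 and 11.74, 11.83, 11.64 and 11.91 at day 5. Both later days lay above all arrays of day 1, while days 3 and 5 overlapped. The rise from day 1 to day 5 was 1.27 (SE 0.16, limma adjusted p = 3.04e-05), of which 1.21 (SE 0.16, limma adjusted p = 7.24e-05) was present at day 3. This timing depended on the scaling. Without normalization miR-98 differed by 0.17 between day 1 and day 3 and by 0.67 between day 3 and day 5. Without replicate 4 of day 1 the day 5 rise was 1.10.

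let-7d, let-7f and let-7a, whose genes Mirlet7d, Mirlet7f-1 and Mirlet7a-1 lie together on chromosome 13, rose by 0.92 to 1.08 on the normalized scale. let-7d was at 13.98, 14.12, 14.05 and 13.49 at day 1 and at 15.07, 15.07, 14.81 and 15.00 at day 5, a rise of 1.08 (SE 0.13, limma adjusted p = 2.91e-05). let-7a was at 14.63, 14.81, 14.85 and 14.18 at day 1 and at 15.45, 15.62, 15.45 and 15.62 at day 5, a rise of 0.92 (SE 0.14, limma adjusted p = 0.000114). In both members all arrays of day 5 lay above all arrays of day 1, and replicate 4 was again the lowest of day 1. Without it the rises were 0.92 for let-7d and 0.74 for let-7a.

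let-7f was at 15.00, 15.21, 15.34 and 14.55 at day 1 and at 16.10 on all 4 arrays of day 5. Quantile normalization gives the same value to the same rank, so the lack of spread at day 5 reflects the rank of let-7f on those arrays and is no measure of precision. On each day 5 array 7 to 10 of its spots were saturated, as were 3 spots on replicate 3 of day 1, all of them in the longer of its 2 probes. The normalized rise was 1.07 (SE 0.14, limma adjusted p = 5.84e-05), a size that saturation and the scaling both touch, and it was 0.61 without normalization (limma adjusted p = 0.0811). Before normalization the longer probe differed by 0.51 between day 1 and day 5 and the shorter, which had no saturated spot, by 0.77. Without replicate 4 of day 1 the normalized rise was 0.89.

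The other 4 members moved less. let-7b was at 11.78, 12.06, 12.13 and 11.38 at day 1 and at 12.20, 12.27, 12.31 and 12.41 at day 5, a difference of 0.46 (SE 0.15, limma adjusted p = 0.0171) without overlap. let-7c, which can come from genes on chromosomes 15 and 16, differed by 0.41 (SE 0.17, limma adjusted p = 0.0510), and its arrays overlapped between the days. It did pass with 2 other scalings. These were the 75th percentile of all mouse miRNAs (0.70, limma adjusted p = 0.00492) and the median (0.74, limma adjusted p = 0.00869). let-7i, whose gene has no host gene and no other miRNA gene within 10 kb, was at 14.32, 14.32, 14.18 and 14.22 at day 1 and at 14.39, 14.55, 14.45 and 14.45 at day 5. Its difference was 0.20 (SE 0.07, limma adjusted p = 0.0223), again without overlap. let-7g, encoded within the gene Wdr82, differed by 0.17 (SE 0.08, limma adjusted p = 0.0745) with overlap. Without replicate 4 of day 1 the differences were 0.31 for let-7b, 0.22 for let-7c, 0.18 for let-7i and 0.11 for let-7g, and none passed. Counted by overlap alone, 7 of 9 members had all arrays of day 5 above those of day 1, as did 32.6% of all miRNAs tested.

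**Figure D2:**
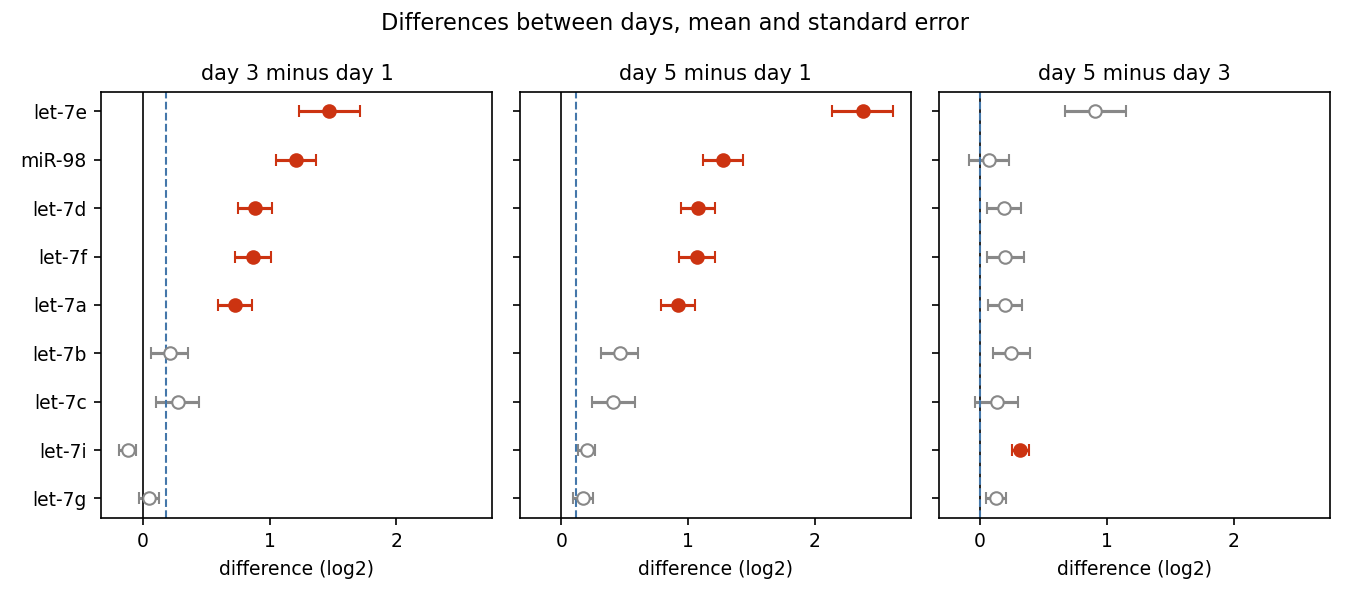
Differences between days (log2, horizontal axes) for each member, with the standard error of the limma fit; filled red points passed the adjusted threshold of 0.01, open gray points did not, and the dashed line is the median of all miRNAs tested. Both contrasts with day 1 hold the same 5 filled members, and the contrast of day 5 with day 3 holds let-7i alone.

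At day 3 the same 5 members had already risen, namely let-7e by 1.47 (SE 0.24), miR-98 by 1.21 (SE 0.16), let-7d by 0.89 (SE 0.13), let-7f by 0.87 (SE 0.14) and let-7a by 0.72 (SE 0.14). By the same limma rule 27.2% of all miRNAs tested rose between these days and 25.1% fell. The 5 members had no overlap between the arrays of day 3 and day 1, a pattern seen in 29.9% of all miRNAs tested, while 29.6% of all miRNAs and 0 members lay below day 1 on every array of day 3. let-7b, let-7c, let-7g and let-7i differed by 0.21, 0.28, 0.05 and -0.12, and none of these passed by limma, at the adjusted threshold or at an unadjusted p under 0.05. The 2 contrasts with day 1 share its arrays, replicate 4 included. Without that array the day 3 rises were 1.21 for let-7e, 1.03 for miR-98, 0.73 for let-7d, 0.70 for let-7f and 0.55 for let-7a, and all 5 still passed. let-7b, let-7c, let-7g and let-7i were then at 0.06, 0.09, -0.02 and -0.14.

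Between day 3 and day 5, let-7i rose by 0.32 (SE 0.07, limma adjusted p = 0.00434), and its arrays of 14.05, 14.18, 14.12 and 14.22 at day 3 all lay below those of day 5. It was the 1 of 9 members that passed, where 14.7% of all miRNAs tested rose and 10.8% fell. The difference of let-7e was 0.91 (SE 0.24, limma adjusted p = 0.0135), which missed the threshold. It passed in 2 of 12 fits with 1 array left out. These were without replicate 4 of day 1 (limma adjusted p = 0.00126) and without replicate 3 of day 1 (limma adjusted p = 0.00850). Neither array is in this contrast, and the differences were then 0.91 and 0.90. miR-98 differed by 0.07 (SE 0.16, limma adjusted p = 0.811). The day 5 arrays lay above all day 3 arrays for 5 members (let-7a, let-7b, let-7e, let-7f and let-7i), as for 22.5% of all miRNAs tested. Through equal ranks, let-7a had the same value (15.34) on all arrays of day 3, as let-7f had at day 5. Both differed by 0.20 and did not pass (limma adjusted p = 0.339 for let-7a and 0.357 for let-7f). let-7i passed under 12 of 16 other settings. The 75th percentile of miRNAs detected on all arrays gave 0.00339 (limma adjusted p = 0.992) and that of all mouse miRNAs 0.24 (limma adjusted p = 0.267). Median scaling gave 0.32 (limma adjusted p = 0.136), and with the replicate number as a block the limma adjusted p was 0.0106. Leaving out 1 of 5 arrays (replicates 1, 2 and 3 of day 3, and 2 and 3 of day 5) also ended the call of let-7i.

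Over the 3 days together, the moderated F test of limma passed for 6 of 9 members, the 5 above and let-7i, against 62.9% of all miRNAs tested. Adding a difference over 2-fold left 4 members (let-7d, let-7e, let-7f and miR-98), against 46.7% of all miRNAs. Without replicate 4 of day 1 that count was 2, let-7e and miR-98. The share of members called was close to the background by this rule.

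**Figure D3:**
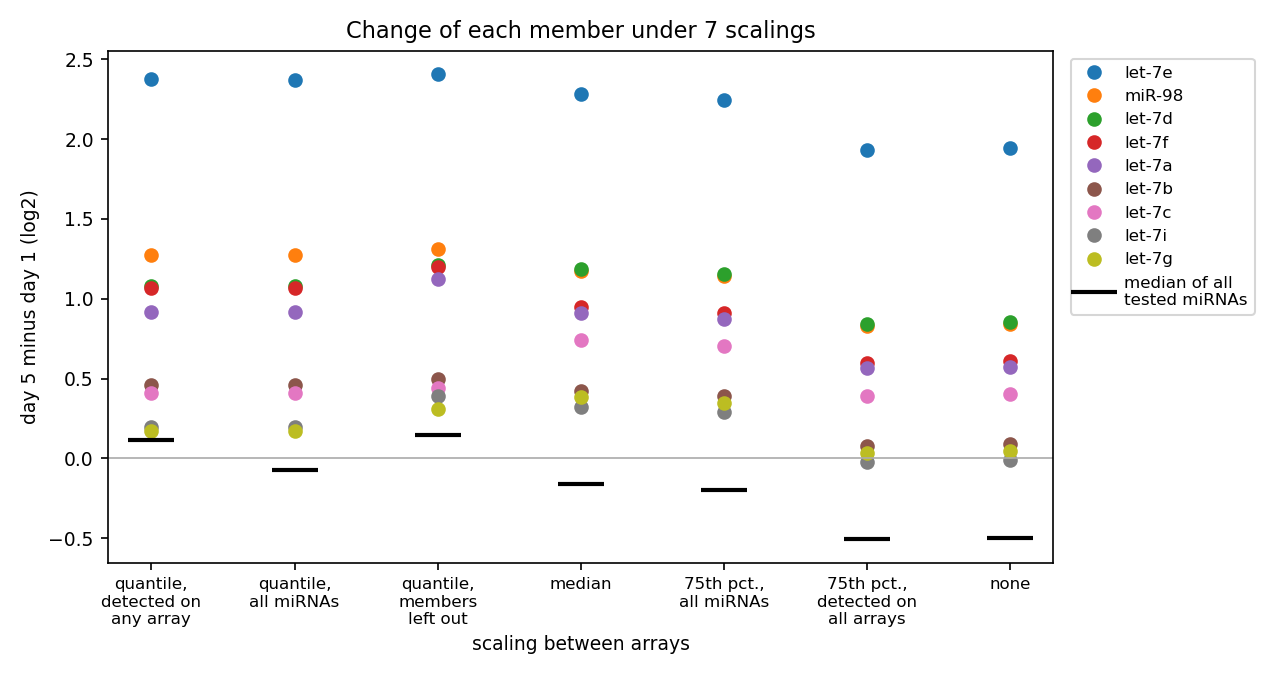
Difference from day 1 to day 5 (log2, vertical axis) of each member under 7 ways of scaling the arrays (horizontal axis), with a black bar for the median of all miRNAs tested. let-7e was the highest under all 7, and all members lay above the median of all miRNAs tested; against the miRNAs detected on all arrays, let-7g and let-7i lay below the median with the reported scaling.

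How the arrays are scaled set the size of every difference. Without normalization the median of all miRNAs tested differed by -0.50 between day 1 and day 5, and with scaling to the 75th percentile of those detected throughout by -0.51. On those scales let-7e still rose by 1.94 and 1.93 and let-7d by 0.85 and 0.84, while let-7i was at -0.01 and -0.02. let-7d and let-7e passed under all 17 other settings, miR-98 under 16, and let-7a and let-7f under 14. Of the members not called, let-7i passed under 3, let-7c under 2, let-7b under 1 and let-7g under 0. For day 3 the unnormalized median of all miRNAs was -0.77, and there none of the 5 day 3 rises passed. let-7e was at 0.60 (limma adjusted p = 0.118), miR-98 at 0.17, let-7d at 0.11, let-7f at -0.02 and let-7a at -0.20, while let-7b (-0.85) and let-7i (-0.75) were lower past the threshold (limma adjusted p = 0.00230 each). The day 3 rises were thus relative to the other miRNAs. In the authors' deposited values the day 3 differences of let-7e and let-7f were 2.53 and 0.56 and missed the limma threshold (adjusted p = 0.0158 and 0.0243).

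The members were therefore also compared with each other on the same array, where scaling between arrays cancels. For each of the 36 pairs the log2 ratio of the total signals was set between day 5 and day 1 by the exact two-sided permutation test. The changes differed in 30 of 36 pairs (exact permutation p = 0.0286 each, Benjamini-Hochberg adjusted p = 0.0343 over 36 pairs), and in all 30 the arrays of both days did not overlap. The 36 pairs reuse the same members and arrays, and no share over pairs of other miRNAs is given beside this count. In normalized values, 32.6% of all miRNAs tested had all day 5 arrays above day 1 and 29.9% had all below. Unequal change is thus not shown to be particular to the family. The 6 pairs that did not pass were let-7a with let-7c, let-7a with let-7f, let-7b with let-7g, let-7d with let-7f, let-7d with miR-98, and let-7g with let-7i. Removing let-7f, the member with saturated spots, left 24 of 28 pairs.

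**Figure D4:**
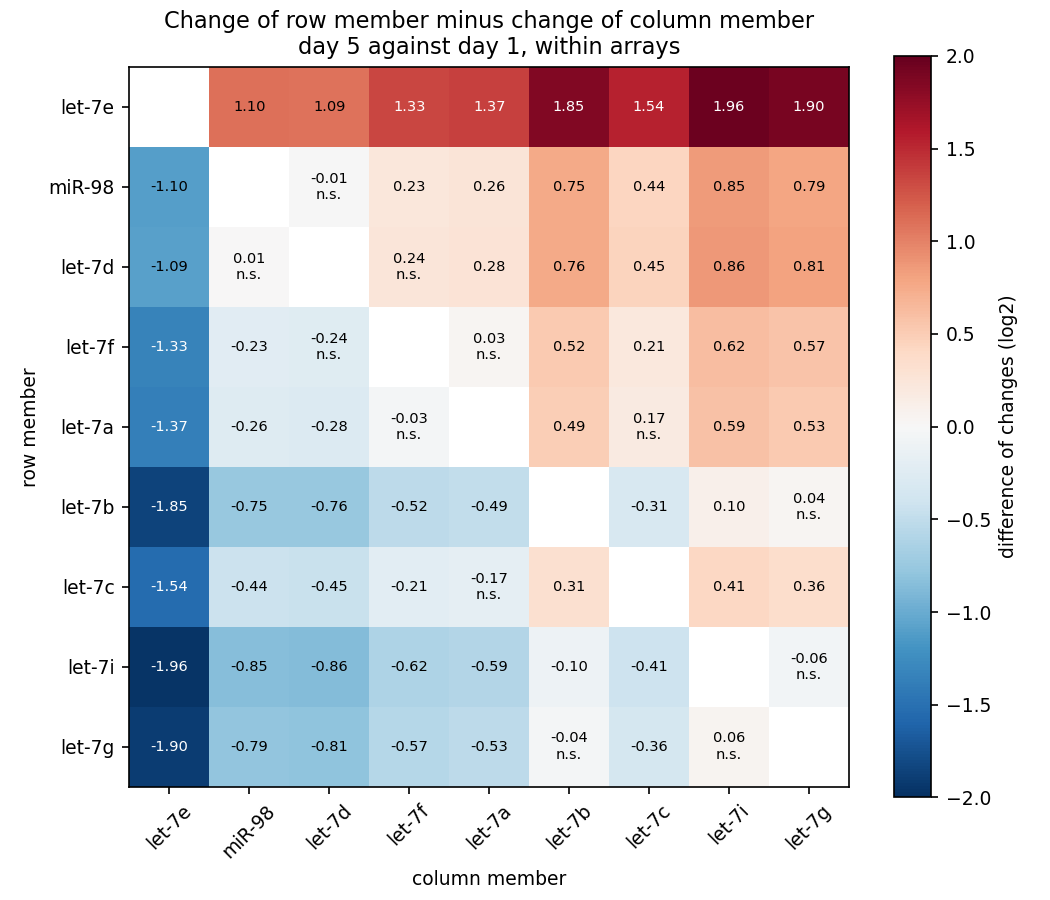
Change of the row member minus change of the column member from day 1 to day 5 (log2, color scale), from unnormalized signals on the same array; n.s. marks the 6 pairs with an adjusted p over 0.05. The row of let-7e is positive against all other members, from 1.09 to 1.96.

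let-7e rose more than each of the other 8 members. Its ratio to let-7i was between -6.74 and -5.71 on the log2 scale at day 1 and between -4.32 and -4.07 at day 5, a change of 1.96 or 3.88-fold. Its ratio to let-7a, from which it differs by U9G alone, changed by 1.37 (2.58-fold), and its ratio to miR-98 by 1.10 (2.15-fold). Without replicate 4 of day 1 these 3 changes were 1.76, 1.35 and 1.06. The median total signal at day 1 was 378 for let-7e and 40010 for let-7a, and the part of cross-hybridization in these ratios was not tested.

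No difference between the changes of miR-98 and let-7d was resolved. The log2 ratio of let-7d to miR-98 was 3.18 (SD 0.11) at day 1 and 3.19 (SD 0.03) at day 5 (exact permutation p = 0.886, n = 4 per day). Leaving out 1 array at a time gave -0.01 to 0.07. Against let-7i, let-7d gained 0.86 (1.82-fold), miR-98 0.85 (1.80-fold), let-7a 0.59 and let-7f 0.62, the last from totals that include saturated spots. These gains were smaller without replicate 4 of day 1, at 0.76, 0.69, 0.41 and 0.45.

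let-7b and let-7c, which differ by 1 base and share a cluster on chromosome 15, changed unequally. let-7c gained 0.31 over let-7b (1.24-fold), and the ratio of let-7b to let-7c was between -0.54 and -0.32 at day 1 and between -0.81 and -0.78 at day 5. In the normalized values the order was the opposite, with let-7b at 0.46 and let-7c at 0.41. let-7g and let-7i changed by amounts whose difference of 0.06 did not pass (exact permutation p = 0.286), and left-out arrays gave 0.03 to 0.09. With a left-out array the exact test cannot go below 0.0571, so those values have no call; 30 to 32 of the 36 pairs had no overlap then.

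**Figure D5:**
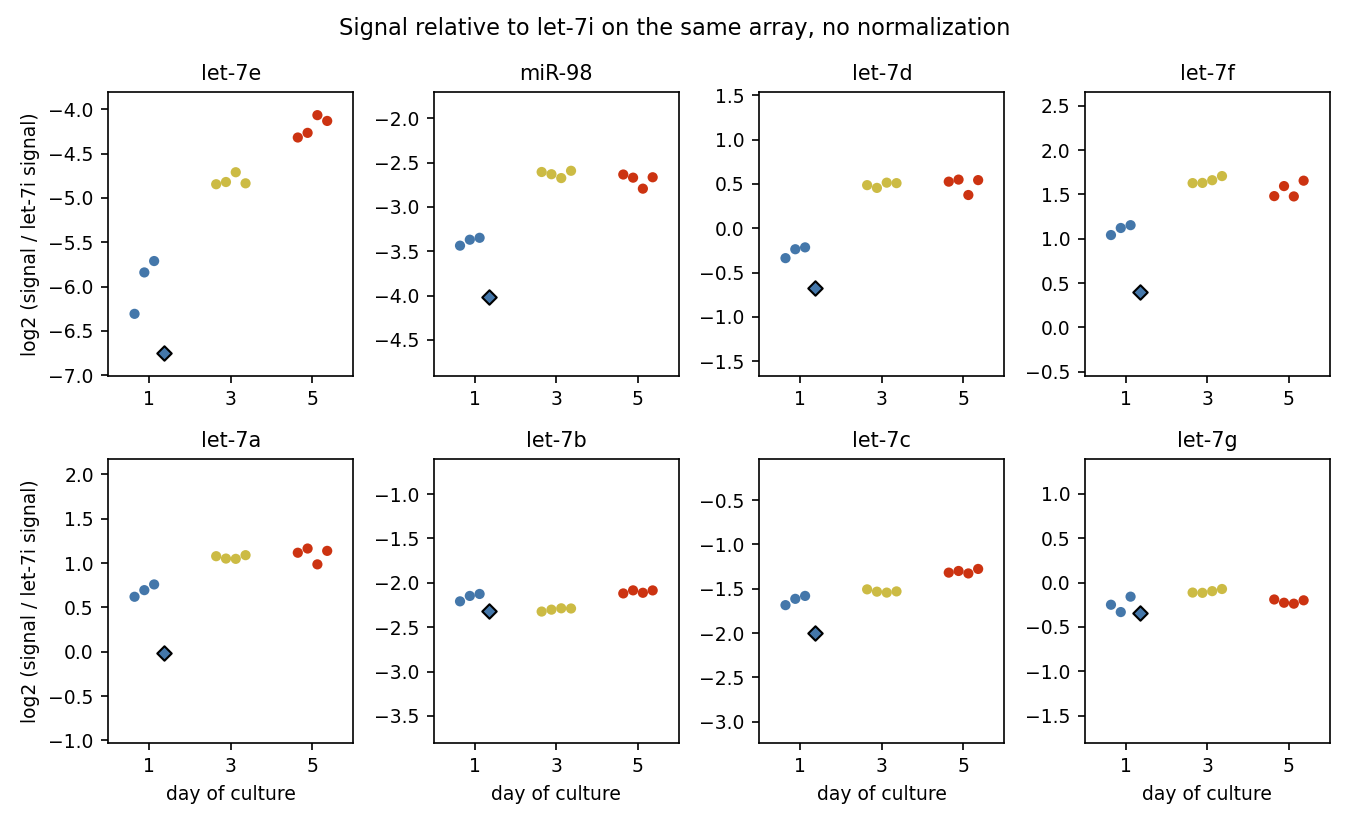
Log2 ratio of each member to let-7i on the same array (vertical axes, each spanning 3.2 log2 units), without normalization, by day of culture; each point is 1 array and the diamond is replicate 4 of day 1. let-7i was chosen as the denominator after its values were seen. The diamond is the lowest of the day 1 points in all 8 panels.

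The ratios to let-7i overlapped between day 3 and day 5 for let-7a, let-7d, let-7f and miR-98. let-7a had 0.62, 0.69, 0.76 and -0.02 at day 1, 1.05 to 1.09 at day 3 and 0.99 to 1.16 at day 5. let-7d was at 0.46 to 0.51 at day 3 and 0.38 to 0.55 at day 5, and miR-98 at -2.67 to -2.59 and -2.79 to -2.63. let-7f was at 1.63 to 1.71 at day 3 and, with saturated spots, at 1.48 to 1.66 at day 5. let-7e did not overlap, at -4.84 to -4.71 at day 3 and -4.32 to -4.07 at day 5. let-7b had its lowest ratios at day 3, between -2.32 and -2.29, which overlapped with day 1 through replicate 4 alone.

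Both probes of a member did not always change alike. The ratio of the longer to the shorter probe was compared between day 1 and day 5 in 9 exact permutation tests. In 5 members (let-7b, let-7c, let-7d, let-7e and let-7f) the arrays did not overlap (exact permutation p = 0.0286), but with Benjamini-Hochberg adjustment over 9 tests the p was 0.0514. No share over the probes of other miRNAs is given, so whether this count is unusual on the array was not tested. The largest difference was in let-7e, whose shorter probe differed by 2.19 and whose longer probe by 1.79 between the days before normalization. The let-7e rise was thus present in both probes, and its size depended on the probe.

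The genes lie in several clusters (GRCm38.p6). Mirlet7d, Mirlet7f-1 and Mirlet7a-1 span chr13:48536012-48538272, on the minus strand. Mirlet7f-2 and Mir98 span chrX:151912346-151913321 within the protein-coding gene Huwe1, and Mirlet7c-2 and Mirlet7b span chr15:85706603-85707403 within the noncoding RNA gene Lncppara. Mir99b, Mirlet7e and Mir125a span chr17:17830188-17830879 within Spaca6, and Mir99a and Mirlet7c-1 span chr16:77598936-77599750. Mirlet7g lies at chr9:106178840-106178927 within Wdr82 and Mirlet7i at chr10:122985640-122985724 with no enclosing gene. Several genes can make one mature let-7a, let-7c or let-7f, which the array cannot tell apart.

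The partners of these clusters belong to the miR-99 and miR-125 families, and their mature sequences are shown because their seeds differ from that of let-7 although the genes are neighbors.
miR-99a: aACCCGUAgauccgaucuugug
miR-99b: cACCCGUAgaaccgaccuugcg
miR-100: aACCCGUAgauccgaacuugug
miR-125a-5p: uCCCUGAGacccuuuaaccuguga
miR-125b-5p: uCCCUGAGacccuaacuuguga

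All 5 partners rose from day 1 to day 5 by the limma rule, as did 31.7% of all miRNAs tested. In the chromosome 17 cluster miR-99b rose by 2.49 (SE 0.13) and miR-125a-5p by 1.92 (SE 0.27), beside 2.38 for let-7e. miR-99b was detected on 2 of 4 arrays of day 1. In the chromosome 16 cluster miR-99a rose by 2.72 (SE 0.09), where let-7c differed by 0.41. Of the chromosome 9 cluster with Mirlet7a-2, miR-100 rose by 2.66 (SE 0.13) and miR-125b-5p, which a second gene near Mir99a can also make, by 2.51 (SE 0.08), beside 0.92 for let-7a. The differences between partners and members were not tested.

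Of the opposite strands, which are cut from the same hairpins and mostly degraded, 7 were on the array. let-7c-1*, let-7f-1*, let-7g* and let-7i* were detected on 0 of 12 arrays, let-7a-1* on 4, let-7b* on 5 and let-7d* on 11. let-7d*, the one detected on nearly every array, differed by 0.42 (SE 1.03, limma adjusted p = 0.739) between day 1 and day 5. None of the 3 that were tested passed limma between any days. 1 of 3, let-7a-1*, had an unadjusted limma p under 0.05 for day 3 and for day 5 against day 1. It was detected on 1 of 4 arrays at day 1, 0 at day 3 and 3 at day 5. On replicates 2 and 4 of day 1 its normalized values lay at the floor.

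The miRNAs outside the family whose course over the 12 arrays lay nearest to the mean of the 9 members were miR-128, miR-350 and miR-30b, with root mean square distances of 0.10, 0.12 and 0.13 among 139 miRNAs detected on all arrays. For 6 of 9 members the nearest miRNA was another member, such as let-7f for let-7a at 0.09. For let-7e, 14 miRNAs outside the family lay nearer than its nearest member miR-98, which was at 0.50, and the nearest was miR-29b at 0.28. miR-21 for let-7g and miR-652 for let-7i were each nearer than any member. The distances share arrays and normalization and are given without a test.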

How the data were processed

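RNA from 12 cultures was read on 12 single-color miRNA arrays. The scanner files deposited by the authors (Feature Extraction 9.5.3.1 per the labels) hold background-subtracted intensity on a linear scale, not yet normalized, as a total per miRNA over its probes with a detection mark. The authors also deposited log2 values after quantile normalization, used as an alternative. Here quantile normalization was run on the totals of the 334 miRNAs with a detection mark on any array, and values were raised to a floor of 1 (372 values, 9.28%, none of the family) and converted to log2. Days were compared with limma 3.58.1 in R 4.3.3 on all miRNAs, with a moderated F test and contrasts, adjusted by Benjamini-Hochberg at 0.01. Pairs of members were compared on log2 total signals within arrays by exact permutation in scipy 1.17.1, adjusted over 36 pairs at 0.05. limma was tested on simulated data. Precision is limited by 4 arrays per day, and since the labels name only replicates, p-values measure the spread between these arrays. The named miRNAs are the members, their opposite strands, the cluster partners, the marker lists and the 3 miRNAs nearest in course; miRNAs nearest to single members were added after their values were seen. Members and lists were chosen with earlier results of these data known. Alternatives covered the filter, scaling, background, signal, floor, test, block, slide, threshold and each array left out. Replicate numbers were not used to pair the arrays in the reported fits, and the labels do not say whether equal numbers share a preparation.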

Additional observations from a re-analysis of the deposited data

Results flagged for a closer look

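Of 25 groups of 4 arrays checked for a value apart from the rest, 1 was picked out, where chance picks about 1 in 20. It was let-7f on replicate 1 of day 3, with a normalized log2 signal of 15.87 against 15.90 on the other 3 arrays of that day, which share a rank and therefore a value.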

How the results depend on the processing

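Of 765 values of single members under other settings, 705 kept their direction and their side of the threshold. Another 27 lost the call, 15 gained one and 18 changed sign, and the cause was not tested. The other floor, tests and block left the members' differences as reported and could move only their p-values. Contrasts that were not called are counted too, so the 705 are no measure of robustness. With the 75th percentile of miRNAs detected on all arrays, 3 members changed over time (6 as reported), 1 changed more than 2-fold (4), 3 changed at day 3 and 3 at day 5 against day 1 (5 each), and 0 at day 5 against day 3 (1). Median scaling gave 3 over time, 3 at day 3 and 0 at day 5 against day 3. The 75th percentile of all mouse miRNAs gave 3 at day 3 and 0 at day 5 against day 3. Without normalization, 1 member changed more than 2-fold, 2 at day 3 (let-7b and let-7i, both lower, with none of the 5 reported rises) and 2 at day 5 against day 1 (let-7d and let-7e), and 4 at day 5 against day 3. The authors' deposited values gave 3 at day 3. For day 5 against day 3, detection on all 12 arrays, normexp and an adjusted threshold of 0.05 each gave 2. Leaving out 1 array gave 0 to 2 members for day 5 against day 3 and 2 to 4 over 2-fold, the lowest without replicate 4 of day 1. The unequal pairs numbered 26 to 30 of 36 under the alternatives that kept all members. These include let-7f by its shorter probe, which was chosen after seeing the data. Without let-7f they numbered 24 of 28. Leaving out arrays was not run as a test there.

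Signs changed for day 3 against day 1 without normalization in let-7a (-0.20), let-7b (-0.85, limma adjusted p = 0.00230), let-7c (-0.56), let-7f (-0.0247) and let-7g (-0.58). let-7b also turned with both 75th percentiles (-0.13 over miRNAs detected on all arrays and -0.0561 over all) and the median (-0.10). let-7g was at -0.0161 with detection on all 12 arrays, at -0.0519 in the deposited values and between -0.0163 and 0.0958 with 1 array left out. let-7i was at 0.0439 with the 75th percentile of all miRNAs and at 0.00398 with the median. For day 5 against day 1, let-7i was at -0.0216 with the 75th percentile of miRNAs detected on all arrays and at -0.0123 without normalization. With that percentile, day 5 against day 3 gave -0.10 for let-7f, -0.11 for let-7g and -0.0615 for miR-98.

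Same-numbered arrays deviated together with r over 0.1 in 7 of 12 pairs (-0.435 to 0.699). Differently numbered arrays of different days ranged from -0.665 to 0.62. The ranges overlap widely, so these correlations cannot decide whether equal numbers share a preparation. With the replicate number as a block, 5 members changed over time and 0 at day 5 against day 3, where let-7i had a limma adjusted p of 0.0106.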
